A study of Mus musculus with 22 samples.

Results

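Des, Acta2, Pdgfrb, Pdgfra, Ngfr, Reln, Hand2, Lhx2, Dcn and Lum are 10 genes by which hepatic stellate cells and liver fibroblasts are commonly recognised, and they are described here in RNA-seq libraries of mouse liver cells labelled HSC (hepatic stellate cells). They were chosen by name as known cell type genes, with earlier results of these data known, and are 10 of the 55367 gene symbols in the count table. All 10 passed the filter on low counts, which kept 22409 genes for testing. The study holds 22 libraries, of which 12 came from mice fed CDA-HFD, a high-fat diet of defined amino acids that lacks choline and is used to give fatty liver disease with scarring, and 10 came from chow-fed control mice. Livers were sampled at zeitgeber time (ZT, hours after lights on) 0, 6, 12 or 18, with 3 CDA-HFD libraries at each time and 3, 2, 2 and 3 control libraries at ZT0, ZT6, ZT12 and ZT18. All mice were 20 weeks old by the labels, and the diets began at 8 weeks of age. The labels give the length of CDA-HFD feeding as 12 weeks in 1 field and as 6 months in another, and this was not settled. Neither arm carries another labelled treatment. The sources used here do not give the strain, the sex or how the cells were isolated. No label says that the libraries of a group came from separate animals, so the spread that each p-value is set against is that of these libraries and may be technical.

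Hepatic stellate cells lie between hepatocytes and the sinusoidal endothelium and store vitamin A. In liver injury they are known to turn into myofibroblasts, which contract, divide in response to platelet-derived growth factors and lay down collagen. Fibroblasts of the portal tract and the liver capsule share much of this gene set, above all the matrix proteoglycans Dcn and Lum, and vascular smooth muscle shares the filament genes Des and Acta2.

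The libraries held 19754805 to 41665623 counts in genes. The first principal component of log2 CPM (counts scaled by library size with TMM factors) took 40.2% of the variance and separated the diets, and control ZT0 replicate 2 and control ZT18 replicate 1 stood apart from the other control libraries. Per length, the levels of the 10 genes were set beside markers of other cells. Dcn, the highest of the 10 genes, averaged 16.3 RPKM (CPM divided by the exon length in kilobases) in CDA-HFD libraries and 44.4 RPKM in control libraries. Kdr, which marks endothelial cells, averaged 14.6 RPKM in CDA-HFD libraries and 328 RPKM in control libraries. Cd8a, which marks cytotoxic T cells, averaged 91.5 RPKM in CDA-HFD libraries and 4.35 RPKM in control libraries, and Spp1, which bile duct cells and macrophages express, averaged 1390 RPKM in CDA-HFD libraries and 294 RPKM in control libraries. The label is therefore used only as a name: Kdr in control libraries and Cd8a and Spp1 in CDA-HFD libraries stood above every one of the 10 genes in mean RPKM.

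Over the 22 libraries the 10 genes fell into a clear order at the top and an unclear one below. Dcn averaged 29.0 RPKM and stood above a median of 90.1% of the tested genes, followed by Lum at 6.52 RPKM and Acta2 at 2.50 RPKM. Dcn was above Lum in 22 of 22 libraries, Lum above Acta2 in 20 and Acta2 above Des, at 1.45 RPKM, in 16. Des was above Pdgfrb, at 0.454 RPKM, in 21 libraries, and Pdgfrb above Pdgfra, at 0.283 RPKM, in 17. Below that the neighbours did not separate: Pdgfra was above Ngfr (0.209 RPKM) in 12 libraries, Ngfr above Reln (0.113 RPKM) in 12, Reln above Hand2 (0.0845 RPKM) in 13 and Hand2 above Lhx2 (0.0728 RPKM) in 12. Lhx2, the lowest, stood above a median of 17% of the tested genes. Dcn alone made up 51.2% to 69.0% of the summed RPKM of the 10 genes in CDA-HFD libraries and 68.0% to 85.7% in control libraries.

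With the diet effect averaged over the 4 times, Ngfr rose and Pdgfra and Dcn fell under CDA-HFD, and the other 7 genes did not pass the test (edgeR quasi-likelihood test, Benjamini-Hochberg adjusted p under 0.05). The count of 3 of 10 stands against 52.4% of all tested genes called in this comparison, 27.5% higher and 24.9% lower. The median log2 change of the 10 genes was 0.25, beside 0.08 for all tested genes. At single times, 0 of the 10 were called at ZT0, where 30.0% of all genes were. Des and Dcn fell at ZT6 (30.1% of all genes called). Ngfr and Lhx2 rose at ZT12 (29.6% of all genes called, and 14.3% of all genes called higher). At ZT18 Ngfr rose while Dcn and Pdgfra fell (30.9% of all genes called). At ZT0 the edgeR quasi-likelihood test gave 0 of the 10 at an unadjusted p under 0.05, and DESeq2 also called 0. For some genes below, the libraries of the diets do not overlap at a time or over all times. The share of all tested genes that separate in this way was not counted. Separation alone is therefore not shown to be special to these genes. In bulk RNA, fewer cells of a type and less RNA per cell cannot be told apart, and this holds for every change below.

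**Figure D1:**
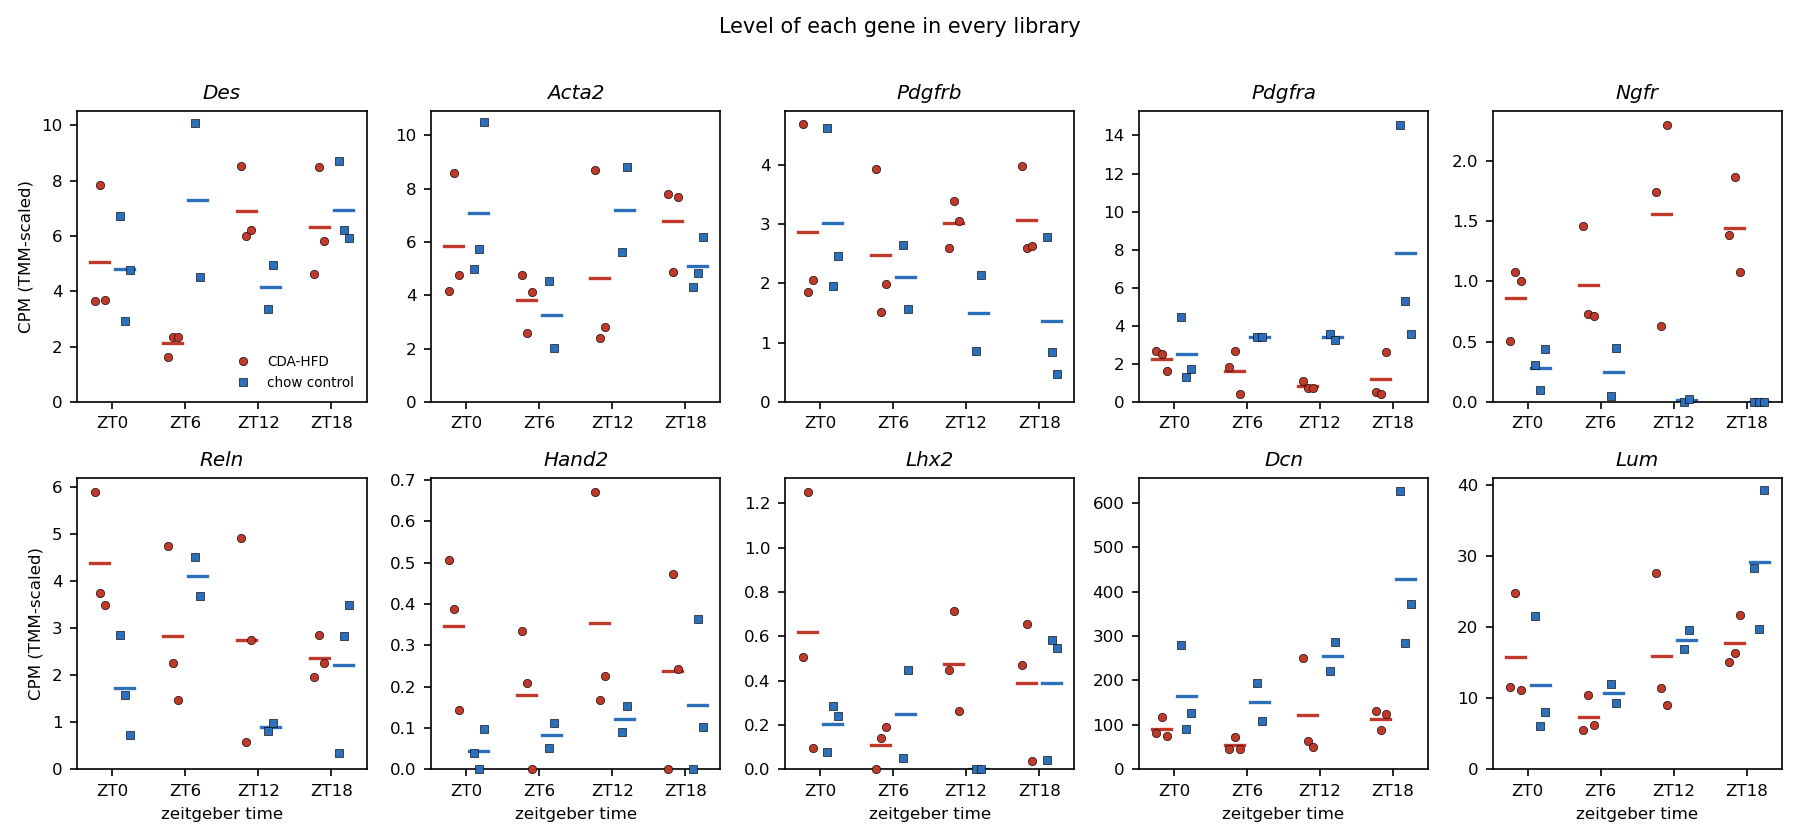
Expression of the 10 genes in each library, in CPM (TMM-scaled, linear axis) against zeitgeber time in hours, with CDA-HFD libraries as red circles on the left and chow control libraries as blue squares on the right at each time; bars are group means. Ngfr is higher in every CDA-HFD library than in every control library, Dcn and Pdgfra are mostly lower under CDA-HFD, and all CDA-HFD libraries at ZT6 are below the control libraries in Des.

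Of the filament genes, Des, which encodes the muscle intermediate filament desmin and lies at chr1:75360329-75368579 on the plus strand (GRCm38), differed by diet at ZT6 and not over all times. Across the 12 CDA-HFD libraries the lowest, median and highest levels were 1.63, 5.23 and 8.54 CPM, and across the 10 control libraries 2.92, 5.44 and 10.1 CPM. The groups overlapped widely, with a log2 change of -0.28 ± 0.21 (SE) and an edgeR quasi-likelihood Benjamini-Hochberg adjusted p of 0.278. At ZT6 the CDA-HFD libraries had 1.63, 2.35 and 2.36 CPM, against 10.1 and 4.52 CPM in control libraries. All 3 lay below both control libraries, and Des fell by 1.79 ± 0.44 on the log2 scale (edgeR quasi-likelihood adjusted p = 0.00336). At ZT12 the order was the other way round, with 8.54, 5.99 and 6.21 CPM in CDA-HFD libraries and 3.36 and 4.96 CPM in control libraries, a log2 change of 0.73 ± 0.45 that did not pass the test (adjusted p = 0.246). The ZT6 call rested on control ZT6 replicate 1, the 10.1 CPM library: without it the change was -1.11 with an adjusted p of 0.171. A predicted gene, Gm15179, covers 5.86% of the Des exons, and the sources used here do not give the strand setting of the counting.

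Acta2 (chr19:34241090-34255590, minus strand) encodes smooth muscle actin, the usual marker of the myofibroblast state, and it showed no difference by diet that passed the test. CDA-HFD libraries had a lowest, median and highest level of 2.39, 4.77 and 8.72 CPM, and control libraries 2.01, 5.32 and 10.5 CPM. The ranges nearly coincided, the log2 change was -0.07 ± 0.25 (edgeR quasi-likelihood adjusted p = 0.845), and its sign changed with the scaling, to 0.11 with library size alone. At ZT12, CDA-HFD replicate 1 had 8.72 CPM and the other replicates 2.39 and 2.82 CPM, against 5.63 and 8.80 CPM in control libraries. Without that replicate Acta2 was called lower at ZT12, with a log2 change of -1.47 and an adjusted p of 0.0307. Among the CDA-HFD libraries, that library also had the highest summed level of stellate cell markers (550 CPM). It was highest too in portal and other fibroblast markers (1460 CPM) and in cholangiocyte markers (5234 CPM). The part of these cells in the Acta2 value was not tested.

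Other intermediate filament and filament partner genes moved in both directions: of 8 tested, 2 were higher and 2 lower over all times, with a median log2 change of -0.47. Over all tested genes, 27.5% were called higher and 24.9% lower in this comparison. Prph, which encodes the neuronal filament peripherin, rose by 2.99 on the log2 scale, and Nes, the progenitor filament nestin, changed by -3.49, with 2.63 ± 0.855 CPM in CDA-HFD and 29.3 ± 7.16 CPM in control libraries (SD). Vim, the general mesenchymal filament vimentin, changed by only 0.16 and Synm, which partners desmin, by -0.94, and both calls were lost when some single libraries were left out. Of 18 tested smooth muscle and pericyte markers, 3 were higher and 6 lower, with a median of -0.72. Smtn (-3.12), Mcam (-2.90), Cald1 (-1.43) and Abcc9 (-1.49) fell, while Tagln, Pln and Higd1b were too low to be tested. The summed level of this list was 106 to 179 CPM in CDA-HFD libraries and 330 to 599 CPM in control libraries. Smtn and Mcam are also expressed by endothelial cells, whose markers were lower in the same libraries, and the part of those cells in these changes was not tested.

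The receptor genes moved apart. Pdgfra (chr5:75152292-75198215, plus strand) encodes the alpha receptor for platelet-derived growth factor, which in liver marks stellate cells and fibroblasts, and it fell under CDA-HFD. Its lowest, median and highest levels were 0.394, 1.35 and 2.67 CPM in CDA-HFD libraries and 1.29, 3.51 and 14.6 CPM in control libraries. The groups overlapped, and the log2 change over all times was -1.48 ± 0.37 (edgeR quasi-likelihood Benjamini-Hochberg adjusted p = 0.00201; exact permutation of the diet labels within times, two-sided p = 0.00233). A difference in effect between times did not pass the test (interaction adjusted p = 0.423). At ZT0 the groups overlapped (2.67, 2.50 and 1.62 CPM in CDA-HFD, against 4.47, 1.29 and 1.74 CPM in control), with a log2 change of -0.15. At ZT6 the CDA-HFD libraries had 1.84, 2.67 and 0.425 CPM, and the control libraries 3.43 and 3.40 CPM. At ZT12 the CDA-HFD libraries had 1.07, 0.712 and 0.752 CPM, and the control libraries 3.59 and 3.23 CPM. At both times every CDA-HFD library lay below every control library, but neither difference passed the test (adjusted p = 0.357 at ZT6 and 0.0603 at ZT12). How many of all tested genes separate in this way at these times was not counted. At ZT12 Pdgfra was called lower by DESeq2 (adjusted p = 0.0331) and by edgeR on the 2 groups alone (0.0215). The edgeR test also called it without the 2 control libraries that stand apart (0.0432). The same held without CDA-HFD ZT6 replicate 3, CDA-HFD ZT18 replicate 2, CDA-HFD ZT18 replicate 3 or control ZT18 replicate 1 (0.0288 to 0.0490). The edgeR run without the filter gave 0.0159, but p-values of that run are not comparable with the others, as given below. At ZT18 the CDA-HFD libraries had 0.506, 0.394 and 2.64 CPM, against 14.6, 5.31 and 3.59 CPM in control libraries, a log2 change of -2.73 ± 0.73 (adjusted p = 0.00686). The 14.6 CPM library was control ZT18 replicate 1, and without it the ZT18 change was -1.92 with an adjusted p of 0.0589. That library had the highest sums of portal and other fibroblast markers (2878 CPM) and of mesothelial markers (168 CPM) of the control libraries, and their part in its Pdgfra level was not tested. Over all times Pdgfra stayed called without it (-1.28, adjusted p = 0.00543). The antisense gene Gm42802 covers 4.55% of the Pdgfra exons.

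Pdgfrb encodes the beta receptor, the main growth factor receptor of activated stellate cells and of pericytes. Its lowest, median and highest levels were 1.52, 2.62 and 4.70 CPM in CDA-HFD libraries and 0.478, 2.05 and 4.62 CPM in control libraries. The groups overlapped, and the log2 change of 0.58 ± 0.32 did not pass the test (edgeR quasi-likelihood adjusted p = 0.135; exact permutation p = 0.0532). At ZT12 all CDA-HFD libraries (2.59, 3.39 and 3.05 CPM) lay above both control libraries (0.863 and 2.14 CPM), with an adjusted p of 0.305. At ZT18 the CDA-HFD libraries had 3.98, 2.60 and 2.64 CPM, against 2.79, 0.837 and 0.478 CPM in control libraries. The highest control value there was again replicate 1, without which Pdgfrb was called higher at ZT18 (2.22, adjusted p = 0.0107).

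Read within each library, the ratio of Pdgfra to Pdgfrb counts had a lowest, median and highest value of 0.127, 0.441 and 1.75 in CDA-HFD libraries and 0.659, 1.85 and 7.50 in control libraries. The ranges overlapped, and the log2 ratio was lower by diet, with a difference of -2.26 (exact permutation within times, two-sided p = 0.00163). This ratio was chosen after the values of both genes were seen. Its p-value does not allow for that choice and is given as a description. Among the 4 ligands of these receptors, Pdgfb rose to 17.3 ± 4.33 CPM in CDA-HFD libraries, against 5.57 ± 2.68 CPM in control libraries (SD; log2 change 1.61), and Pdgfc to 10.6 ± 4.52 CPM, against 2.76 ± 1.14 CPM in control libraries (2.0). Pdgfd fell to 22.2 ± 7.74 CPM, against 67.2 ± 11.9 CPM in control libraries (-1.64). Pdgfa had a log2 change of 0.37 with an adjusted p of 0.0629. Thus 2 of the 4 ligands were higher and 1 lower, beside 27.5% of all tested genes called higher and 24.9% lower. Of the receptor genes, 1 was lower and the other was not called.

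Ngfr (chr11:95568818-95587735, minus strand) encodes the p75 neurotrophin receptor, which stellate cells, Schwann cells and some neurons carry. Its change was in 1 direction in every library. The 12 CDA-HFD libraries had a lowest, median and highest level of 0.507, 1.08 and 2.30 CPM, from 15 to 71 counts. The 10 control libraries had 0, 0.0387 and 0.446 CPM, from 0 to 9 counts, and 4 of them had 0. No control library reached the lowest CDA-HFD library, and mean levels were 1.21 ± 0.555 CPM in CDA-HFD and 0.136 ± 0.185 CPM in control libraries (SD). The edgeR quasi-likelihood adjusted p was 1.26e-06, and the exact permutation p of 2.5e-05 (two-sided) was the smallest that the 40000 arrangements can give. The fitted log2 change was 4.51 ± 0.55, a value that depends on the prior count because several control libraries are at 0.

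Ngfr was higher in every CDA-HFD library than in every control library at each time, and whether the size differed between times did not pass the test (interaction adjusted p = 0.0566). At ZT0 the CDA-HFD libraries had 0.507, 1.08 and 1.0 CPM, and the control libraries 0.306, 0.0956 and 0.435 CPM (adjusted p = 0.156). At ZT6 the CDA-HFD libraries had 1.46, 0.727 and 0.708 CPM, and the control libraries 0.0520 and 0.446 CPM (adjusted p = 0.147). Neither of these differences passed the test. At ZT12 there were 39, 15 and 61 counts in CDA-HFD libraries and 0 and 1 in control libraries, a ratio of 96.9 with an exact 95% counting interval of 17 to 3860 (adjusted p = 0.000814). At ZT18 there were 41, 71 and 31 counts in CDA-HFD libraries and 0 in all 3 control libraries, so that Ngfr was at least 39.9-fold higher, with a floor of 3 counts over the control group (adjusted p = 4.93e-05). These limits cover counting error only. Among control libraries Ngfr was the 1 gene of the 10 that differed between times (adjusted p = 0.0171), in a comparison that called 5.74% of all tested genes.

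Of 10 tested genes of the neurotrophin pathway, 3 were higher and 3 lower, with a median log2 change of 0.25. The shares over all tested genes were 27.5% higher and 24.9% lower. The ligands moved apart: Bdnf, brain-derived neurotrophic factor, rose to 1.77 ± 0.943 CPM in CDA-HFD libraries, against 0.436 ± 0.305 CPM in control libraries (SD). Ntf3, neurotrophin-3, fell to 0.364 ± 0.295 CPM in CDA-HFD libraries, against 24.7 ± 7.46 CPM in control libraries. Bex3 (0.78) and Maged1 (-1.31), whose proteins are known to bind p75, changed in opposite directions on the log2 scale. The Trk receptor genes Ntrk2 and Ntrk3 were not called. Of 10 tested Schwann cell and neuronal markers, 2 were higher (Mbp 1.42 and Erbb3 1.87 on the log2 scale) and 2 lower (Cdh19 -2.30 and Uchl1 -1.40), and the lower calls were lost without the ZT18 libraries. Without control ZT6 replicate 2 the change of Cdh19 was -0.56 and was not called. Their summed level was 81.6 to 122 CPM in CDA-HFD libraries and 21.4 to 72.5 CPM in control libraries, most of it from Mbp. The defining Schwann cell gene Sox10 was too low to be tested, with a mean level of 0.0588 CPM in CDA-HFD libraries and 0.174 CPM in control libraries. The part of other Ngfr-expressing cells in the Ngfr difference was not tested.

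The promoters of Ngfr and Pdgfra are printed because these receptor genes were called in opposite directions. Each runs 5′ to 3′ on the gene's strand over 250 bases before and 50 after the start in RefSeq's table for GRCm38.p6, in which 7 of the 10 genes had an entry. The Ngfr window is chr11:95587649-95587948 (minus strand) and the Pdgfra window chr5:75152001-75152300 (plus strand), and capitals mark GC boxes (GGGCGG, or CCGCCC on the other strand).
Ngfr: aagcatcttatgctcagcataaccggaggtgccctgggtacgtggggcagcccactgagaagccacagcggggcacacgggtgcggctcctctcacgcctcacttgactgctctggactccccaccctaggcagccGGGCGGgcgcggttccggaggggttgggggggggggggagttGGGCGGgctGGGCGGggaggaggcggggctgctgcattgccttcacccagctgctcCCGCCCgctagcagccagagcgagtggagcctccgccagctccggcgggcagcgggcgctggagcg
Pdgfra: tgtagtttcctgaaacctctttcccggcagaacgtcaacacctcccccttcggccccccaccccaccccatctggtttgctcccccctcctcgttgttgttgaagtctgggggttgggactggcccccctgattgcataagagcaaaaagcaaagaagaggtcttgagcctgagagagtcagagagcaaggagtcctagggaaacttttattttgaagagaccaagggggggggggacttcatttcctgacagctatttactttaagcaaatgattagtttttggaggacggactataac
Ngfr held 4 GC boxes, at -114 to -109, -72 to -67, -63 to -58 and -16 to -11 from the start, and Pdgfra held 0. A GC box was present in 35.7% of the 32851 promoters of the table. The E-box CACGTG, whose reverse complement is the same, to which the clock proteins CLOCK and BMAL1 are known to bind, was searched on both strands as well. It was in neither the Ngfr nor the Pdgfra window, and in 7.15% of all promoters. These matches describe the letters only.

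Reln (chr5:21884454-22344702, minus strand) encodes reelin, a secreted matrix glycoprotein that quiescent and activated stellate cells make and that lymphatic endothelium also makes. Its lowest, median and highest levels were 0.586, 2.81 and 5.91 CPM in CDA-HFD libraries and 0.333, 2.21 and 4.53 CPM in control libraries. The groups overlapped, with a log2 change of 0.62 ± 0.38 (edgeR quasi-likelihood adjusted p = 0.185). At ZT0 every CDA-HFD library (5.91, 3.75 and 3.49 CPM) was above every control library (2.86, 1.58 and 0.725 CPM), but the log2 change of 1.34 was not called (adjusted p = 0.182). Its promoter in the same RefSeq table (chr5:22344656-22344955, minus strand) was the 1 printed here with an E-box, in capitals at -71 to -66. Its 6 GC boxes are left in small letters.
Reln: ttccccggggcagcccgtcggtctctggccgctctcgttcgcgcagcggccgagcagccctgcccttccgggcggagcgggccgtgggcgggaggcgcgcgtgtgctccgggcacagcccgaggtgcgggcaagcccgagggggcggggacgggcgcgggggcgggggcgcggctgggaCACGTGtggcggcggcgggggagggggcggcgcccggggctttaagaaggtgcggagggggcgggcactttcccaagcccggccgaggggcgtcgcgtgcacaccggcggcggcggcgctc
Reln was not called between times in control libraries or in CDA-HFD libraries. Of 8 tested genes of the reelin pathway, 2 were higher and 3 lower over all times, with a median of -0.03. Among all tested genes, 27.5% were called higher and 24.9% lower. Lrp8, the reelin receptor also known as ApoER2, rose to 18.6 ± 5.99 CPM in CDA-HFD libraries, against 4.84 ± 3.66 CPM in control libraries (SD; log2 change 2.41). Vldlr, the other receptor, had a log2 change of -0.09 and was not called. The kinase gene Src rose (2.07), whereas Fyn (-0.83) and the adaptor gene Crk (-1.80) fell. Dab2, which is strongly expressed by liver endothelium, fell to 64.1 ± 17.8 CPM in CDA-HFD libraries, against 698 ± 158 CPM in control libraries. The neuronal adaptor of this pathway, Dab1, had a log2 change of 0.92 and an adjusted p of 0.0552.

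**Figure D2:**
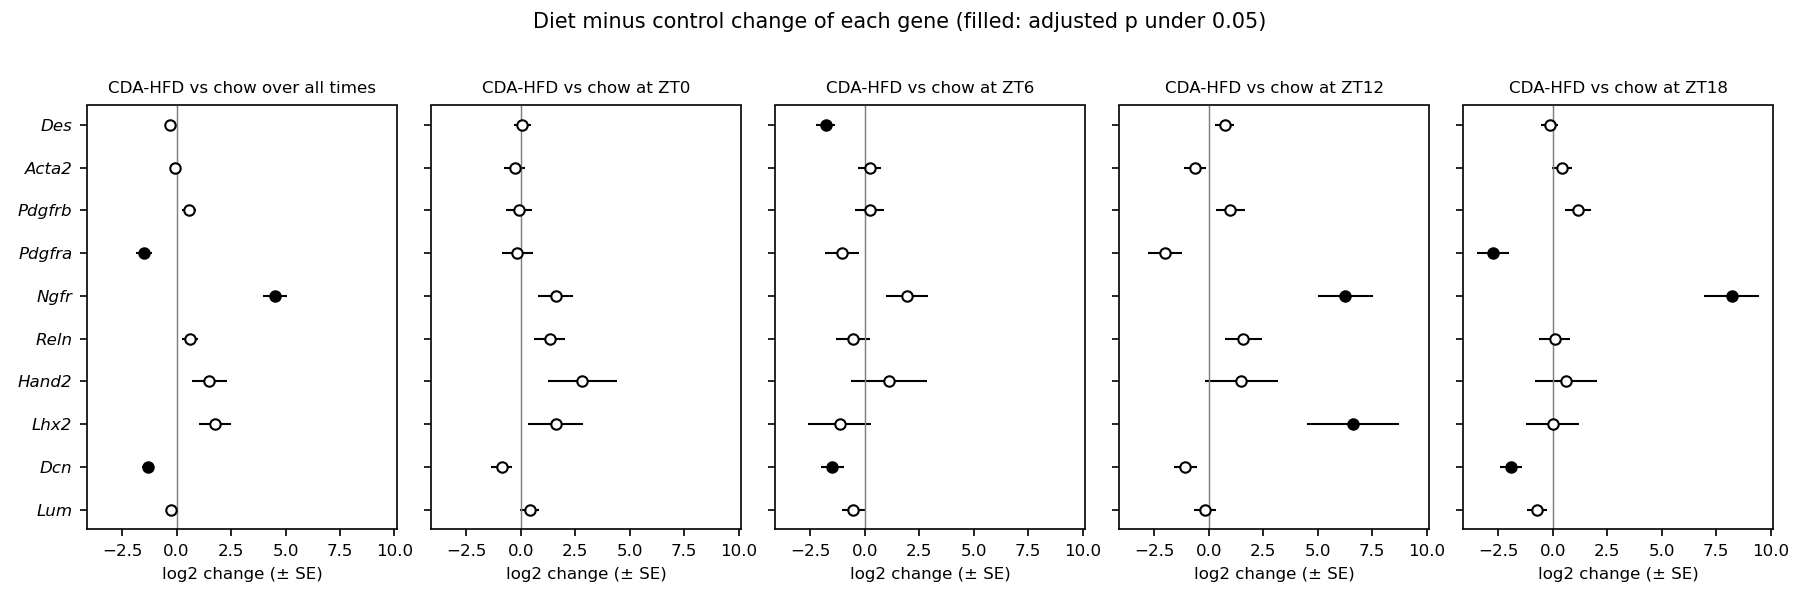
Log2 change (CDA-HFD minus chow control) of the 10 genes over all times and at each zeitgeber time, from the edgeR quasi-likelihood model. Points are estimates, and bars are ± 1 approximate standard error, the size of the change divided by the square root of F. Filled points have a Benjamini-Hochberg adjusted p under 0.05. Over all times the filled points are Ngfr (4.51), Pdgfra (-1.48) and Dcn (-1.33), and the estimates of Ngfr at ZT12 and ZT18 and of Lhx2 at ZT12 are set against control groups with libraries at 0 counts.

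The transcription factor genes were measured near the floor. Hand2 (chr8:57320983-57324633, plus strand) encodes a basic helix-loop-helix factor of mesenchymal cells, and it had 0 to 18 counts in CDA-HFD libraries and 0 to 10 in control libraries. Its lowest, median and highest levels were 0, 0.234 and 0.671 CPM in CDA-HFD libraries and 0, 0.0937 and 0.364 CPM in control libraries. The groups overlapped and the log2 change of 1.51 ± 0.81 was not called (edgeR quasi-likelihood adjusted p = 0.128). The exact permutation p within times was 0.0470 with a prior count of 2 and 0.104 with one of 0.5. At ZT0 every CDA-HFD library was above every control library, with 27 counts in all in the CDA-HFD group and 3 in the control group. That is a ratio of 8.28 with an exact 95% counting interval of 2.55 to 42.6. The interval covers counting error only, and the edgeR quasi-likelihood test did not call Hand2 at ZT0 (adjusted p = 0.206). The long noncoding gene Hand2os1 covers 19.6% of the Hand2 exons, and without a stated strand setting its reads cannot be told apart there.

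Lhx2 (chr2:38339281-38369733, plus strand) encodes a LIM homeobox factor known in mice to keep stellate cells quiescent. CDA-HFD libraries had a lowest, median and highest level of 0, 0.355 and 1.25 CPM, and control libraries 0, 0.159 and 0.582 CPM. The groups overlapped, and the log2 change of 1.77 ± 0.74 had an edgeR quasi-likelihood adjusted p of 0.0525; DESeq2 gave 0.0491, and the edgeR value passed without CDA-HFD ZT0 replicate 3, CDA-HFD ZT6 replicate 1, CDA-HFD ZT18 replicate 3 or control ZT6 replicate 2 (0.0326 to 0.0389). At ZT12 the CDA-HFD libraries had 10, 17 and 7 counts and both control libraries had 0, so that Lhx2 was at least 9.55-fold higher with a floor of 3 counts over the control group (adjusted p = 0.0227). That call was lost when either control library at ZT12 was left out, with an adjusted p of up to 0.159. In simulated data, 20% of genes with 0.1 to 1 CPM and a 4-fold change were called for diet over all times. Those data held 200 changed genes in all, far fewer than the 11748 called here. The adjustment was therefore stricter in the simulation, and its 20% does not give the reach of the test on these libraries.

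Of 19 other tested transcription factor genes of stellate and mesenchymal cells, 1 was higher and 8 lower over all times, with a median log2 change of -0.86. In the same comparison 27.5% of all tested genes were called higher and 24.9% lower. Gata4, which sinusoidal endothelium and stellate cells both use, fell to 20.1 ± 5.43 CPM in CDA-HFD libraries, against 239 ± 41.9 CPM in control libraries (SD). Rarb, a retinoic acid receptor gene, changed by -2.95, Snai2 by -2.53 and Zeb1 by -1.64 on the log2 scale. Heyl, a Notch target of pericytes, was the 1 that rose (2.29). Tcf21, an embryonic stellate cell factor, had 0.234 ± 0.330 CPM in CDA-HFD and 0.0931 ± 0.188 CPM in control libraries and was not called. The endothelial marker sum given below was also lower under CDA-HFD, and the part of endothelial cells in these changes was not tested.

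Dcn and Lum encode decorin and lumican, small leucine-rich proteoglycans that bind collagen fibrils, and they are neighbours on chromosome 10 (Dcn chr10:97479609-97518143 and Lum chr10:97565128-97572703, both plus strand). Dcn was by far the more abundant per length, and it fell under CDA-HFD. Its lowest, median and highest levels were 44.5, 77.4 and 249.6 CPM in CDA-HFD libraries and 90.0, 251 and 626 CPM in control libraries. The ranges overlapped, and the log2 change was -1.33 ± 0.26 (edgeR quasi-likelihood Benjamini-Hochberg adjusted p = 0.000157; exact permutation within times, two-sided p = 0.00055). At ZT0 the CDA-HFD libraries had 81.0, 117 and 73.7 CPM, and the control libraries 280, 90.0 and 127 CPM (adjusted p = 0.202). At ZT6 the CDA-HFD libraries had 44.7, 73.3 and 44.5 CPM, and the control libraries 194 and 109 CPM (-1.48 ± 0.53, adjusted p = 0.0408). Neither control library at ZT6 was reached, but this call was lost when control replicate 1, CDA-HFD replicate 1 or CDA-HFD replicate 3 of that time was left out (adjusted p up to 0.346), and with DESeq2 (0.0535) or scaling by library size alone (0.0846). At ZT12 CDA-HFD replicate 1, with 249.6 CPM, lay between the control libraries at 222 and 286 CPM, while the other CDA-HFD replicates had 63.2 and 50.1 CPM (-1.07, adjusted p = 0.144). Without that replicate Dcn was called at ZT12 (-2.16, adjusted p = 0.00116). At ZT18 the CDA-HFD libraries had 130, 87.2 and 125 CPM, and the control libraries 626, 284 and 372 CPM, with no overlap and a log2 change of -1.91 ± 0.50 (adjusted p = 0.00546).

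Lum had a lowest, median and highest level of 5.43, 11.4 and 27.6 CPM in CDA-HFD libraries and 6.02, 18.2 and 39.2 CPM in control libraries. The groups overlapped, and the log2 change of -0.26 ± 0.24 did not pass the test (edgeR quasi-likelihood adjusted p = 0.400). At ZT0 the CDA-HFD libraries had 11.5, 24.8 and 11.1 CPM, against 21.5, 6.02 and 8.07 CPM in control libraries. At ZT6 they had 5.43, 10.5 and 6.23 CPM, against 12.0 and 9.25 CPM in control libraries, and at ZT12 27.6, 11.3 and 8.95 CPM, against 16.8 and 19.6 CPM in control libraries. At ZT18 they had 15.1, 16.3 and 21.7 CPM, against 28.3, 19.7 and 39.2 CPM in control libraries. The groups overlapped at every time.

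The 2 proteoglycan genes thus kept a different ratio in the 2 diets. Within each library, the ratio of Dcn to Lum counts had a lowest, median and highest value of 4.72, 6.80 and 9.05 in CDA-HFD libraries and 9.49, 14.5 and 22.1 in control libraries. No CDA-HFD library reached the lowest control library. The difference in log2 ratio was -1.10, with an exact permutation p of 2.5e-05 (two-sided, within times), the smallest that 40000 arrangements can give. Leaving out any 1 library kept the difference between -1.18 and -1.03. This ratio, too, was chosen after the values were seen, and its p-value does not allow for that choice.

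**Figure D3:**
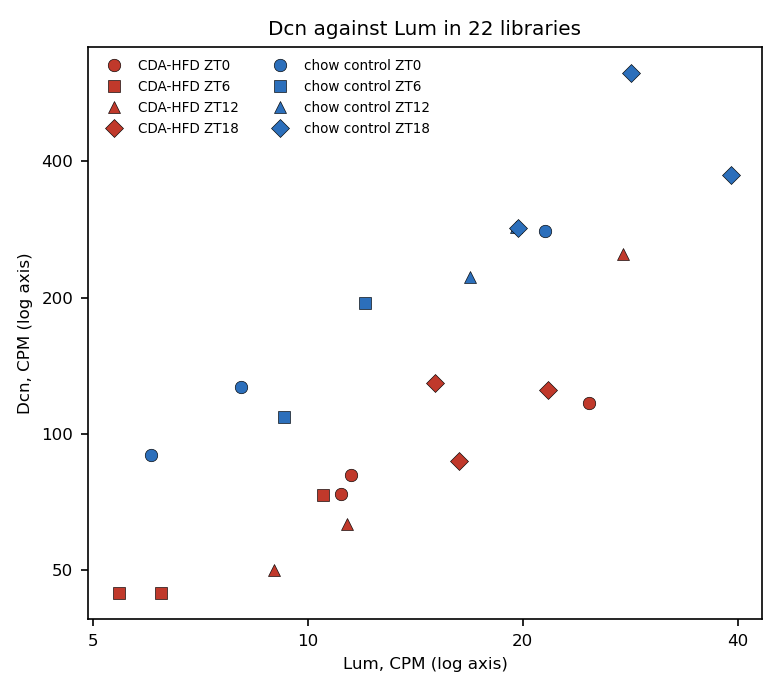
Dcn against Lum in each library, both in CPM on log axes, with CDA-HFD libraries in red and chow control libraries in blue. Circles mark ZT0, squares ZT6, triangles ZT12 and diamonds ZT18. Both genes rise together across libraries, and at any given Lum level the control libraries lie higher in Dcn, with count ratios of 4.72 to 9.05 in CDA-HFD libraries and 9.49 to 22.1 in control libraries.

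Among the other small leucine-rich proteoglycans the fall was broad. Of 12 tested, 1 was higher and 9 lower under CDA-HFD, with a median log2 change of -1.94, beside 0.08 for all tested genes and 24.9% of all genes called lower. Bgn, biglycan, fell to 56.8 ± 11.2 CPM in CDA-HFD libraries, against 573 ± 87.5 CPM in control libraries (SD; log2 change -3.35), and Prelp to 29.4 ± 8.13 CPM, against 331 ± 66.6 CPM in control libraries (-3.53). Ecm2 (-3.32), Fmod (-2.43) and Ogn (-2.03) also fell. Chad, chondroadherin, was the 1 that rose, to 6.67 ± 2.68 CPM in CDA-HFD libraries, against 0.885 ± 0.585 CPM in control libraries. Kera, Epyc, Optc and Nyx, genes of eye and cartilage, were too low to be tested. The summed level of the list was 111 to 193 CPM in CDA-HFD libraries and 689 to 1147 CPM in control libraries, without overlap. Bgn and Prelp are not restricted to fibroblasts, and the part of endothelial cells in these falls was not tested.

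Differences between times were tested within each diet, with little reach in simulated data that held 200 changed genes in all. Of genes at 1 to 10 CPM with a 4-fold change between times, 18% were recovered in control libraries and 30% in CDA-HFD libraries. At 0.1 to 1 CPM the share was 0% in either. Among control libraries the edgeR quasi-likelihood test called Ngfr alone, as given above. Dcn averaged 166, 152, 254 and 427 CPM at ZT0, ZT6, ZT12 and ZT18 in control libraries (adjusted p = 0.173), and Lum 11.9, 10.6, 18.2 and 29.1 CPM (adjusted p = 0.165). Both means were highest at ZT18, without passing the test. Dcn passed without CDA-HFD ZT12 replicate 1, which enters through the shared spread (adjusted p = 0.0445), and Lum without control ZT0 replicate 1 (0.0306). Among CDA-HFD libraries 0 of the 10 were called, where 1.08% of all genes were. Des alone had an unadjusted p under 0.05 there (0.00296, adjusted p = 0.112), with means of 5.06, 2.11, 6.91 and 6.32 CPM from ZT0 to ZT18, and DESeq2 called it (adjusted p = 0.00648). For the interaction of diet with time, which called 0.959% of all genes, 0 of the 10 passed. Ngfr, Des and Lhx2 had an unadjusted p under 0.05, with adjusted p values of 0.0566, 0.133 and 0.305. DESeq2 called Ngfr (0.00166) and Des (0.0114) for the interaction, and edgeR called Ngfr without control ZT0 replicate 2 (0.0168) or control ZT6 replicate 1 (0.0367). A difference between times in 1 diet and not in the other is therefore not shown for any of the 10 genes by the edgeR test on all libraries. In simulated data, 2% of genes with a 4-fold interaction at 1 to 10 CPM were recovered, so that the test had little reach for it.

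Pairs of the 10 genes were compared within groups. After the mean of each diet and time group was removed, Dcn and Lum had Pearson's r = 0.86 over 22 libraries (Spearman's rho = 0.82), and r = 0.77 without the 2 libraries farthest from the median of Dcn. With 45 pairs tested, the permutation p of 0.0014 became 0.0576 after Benjamini-Hochberg adjustment, and that of rho 0.0432. For Des and Lum r was 0.67 and rho 0.68 (permutation p adjusted 0.0576 and 0.0459), and for Des and Dcn r was 0.62 and rho 0.55 (0.0576 and 0.262). For Pdgfra and Dcn r was 0.53 and rho 0.59 (0.0600 and 0.143). For Reln and Hand2 r was 0.57 and rho 0.54 (0.282 and 0.327), and for Pdgfra and Lhx2 both were -0.57 (0.283 and 0.277). Thus no pair passed on Pearson's r, and Dcn with Lum and Des with Lum passed on rho. Ngfr, the gene with the clearest diet difference, was in none of these pairs.

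**Figure D4:**
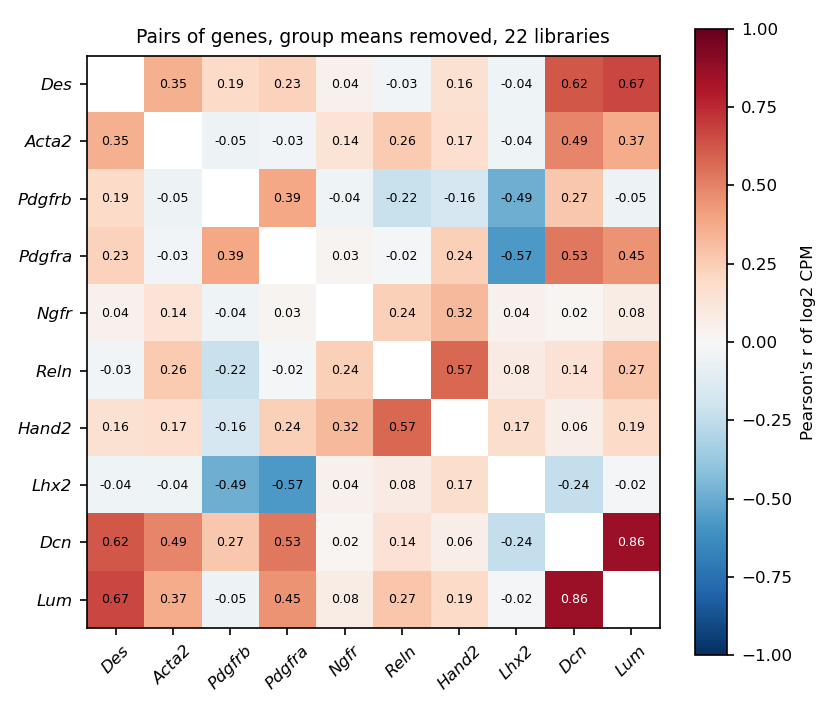
Pearson's r between each pair of the 10 genes over 22 libraries, on log2 CPM with the mean of each diet and time group removed; colour runs from negative (blue) to positive (red). The highest values are those of Dcn with Lum (0.86), Des with Lum (0.67) and Des with Dcn (0.62).

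The tested genes whose within-group pattern was most like each of the 10 were listed from 12599 genes with enough counts, by Pearson's r over the 22 libraries, as a description. For Dcn they were Mmp2 (0.93), Col6a2 (0.93) and Gas1 (0.92), and for Lum Tppp3 (0.89), Mmp2 (0.88) and Ppt1 (0.86). Mmp2 encodes a matrix metalloproteinase and Col6a2 a chain of collagen VI. Pdgfra had Tst (0.86), Micall2 (0.83) and Cd248 (0.82), the last of which encodes the fibroblast and pericyte protein endosialin. Acta2 had Gdf10 (0.80), Plxna4os1 (0.78) and Lhfp (0.77), and Des had Glo1 (0.88), Smad7 (0.82) and Anxa1 (0.78). Pdgfrb had Fam168a (0.83), Mr1 (0.82) and Tgfbrap1 (0.80), and Reln had Arhgef16 (0.88) and Clic6 (0.84). For the genes with few counts the nearest were Aggf1 (0.91), Atp6v1a (0.83) and Taf2 (0.83) for Ngfr, Rin2 (0.86), Grhl2 (0.83) and Dcaf12l1 (0.83) for Hand2, and Snx1 (0.85), Bmp4 (0.84) and Ube2h (0.79) for Lhx2. Mmp2 was thus among the 3 nearest genes of both proteoglycan genes.

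Other markers of stellate cells and fibroblasts are set beside all tested genes, of which 27.5% were called higher and 24.9% lower. Of 21 tested stellate cell markers, 6 were higher and 5 lower, near those shares, with a median log2 change of 0.02. The sums of these markers were 198 to 550 CPM in CDA-HFD libraries and 265 to 747 CPM in control libraries. Rgs5, a regulator of G protein signalling of pericytes and stellate cells, rose to 76.2 ± 35.7 CPM in CDA-HFD libraries, against 6.27 ± 2.68 CPM in control libraries (SD; 3.60). Cygb, the stellate cell globin, rose to 4.31 ± 1.75 CPM, against 1.46 ± 0.455 CPM in control libraries. Ecm1 (-2.85) and Hgf (-1.74), which encodes hepatocyte growth factor, fell, and both are also expressed outside stellate cells. Lrat, the enzyme that stores retinol as ester, had a log2 change of 0.10 and an adjusted p of 0.893. Of 20 tested genes of activated stellate cells, 1 was higher and 7 lower, with a median of -0.73. Thbs2 (-3.46), Itga8 (-2.80), Loxl2 (-2.41) and Aebp1 (-1.78) fell, and the summed level was 81.5 to 218 CPM in CDA-HFD libraries and 150 to 424 CPM in control libraries. Of 22 portal and other fibroblast markers, 2 were higher and 16 lower, with a median of -1.21. Thy1, a marker of portal fibroblasts and of T cells, rose (1.18), whereas Dpp4 (-3.17) and Igfbp6 (-2.30) fell. Their sum was 825 to 1460 CPM in CDA-HFD libraries and 1528 to 2878 CPM in control libraries, without overlap.

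Markers of other cells moved with the diet as well. All 20 endothelial markers were lower, with a median log2 change of -4.10 and sums of 1756 to 4157 CPM in CDA-HFD libraries and 27590 to 55041 CPM in control libraries. All 18 lymphocyte markers were higher (sums of 3152 to 7596 CPM in CDA-HFD and 606 to 2213 CPM in control libraries), as were 13 of 16 macrophage markers (2206 to 5275 CPM in CDA-HFD and 582 to 3584 CPM in control), all 12 cholangiocyte markers (1400 to 5234 CPM in CDA-HFD and 381 to 992 CPM in control) and 11 of 16 hepatocyte markers (1068 to 2406 CPM in CDA-HFD and 482 to 880 CPM in control). Of 10 mesothelial markers, whose cells also express Dcn, 8 were lower and 2 higher, with sums of 55.6 to 162 CPM in CDA-HFD libraries and 83.5 to 168 CPM in control libraries. Of 12 immediate early genes 8 were higher, with sums of 6843 to 14623 CPM in CDA-HFD and 2054 to 10336 CPM in control libraries. All 7 tested mitochondrially encoded genes were higher (9812 to 46208 CPM in CDA-HFD and 8188 to 14188 CPM in control libraries). Apart from mt-Co2 and mt-Co3, no gene of these lists was at 0 in every library. The part of these cell mixtures and of RNA handling in the changes of Ngfr, Pdgfra and Dcn was not tested.

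**Figure D5:**
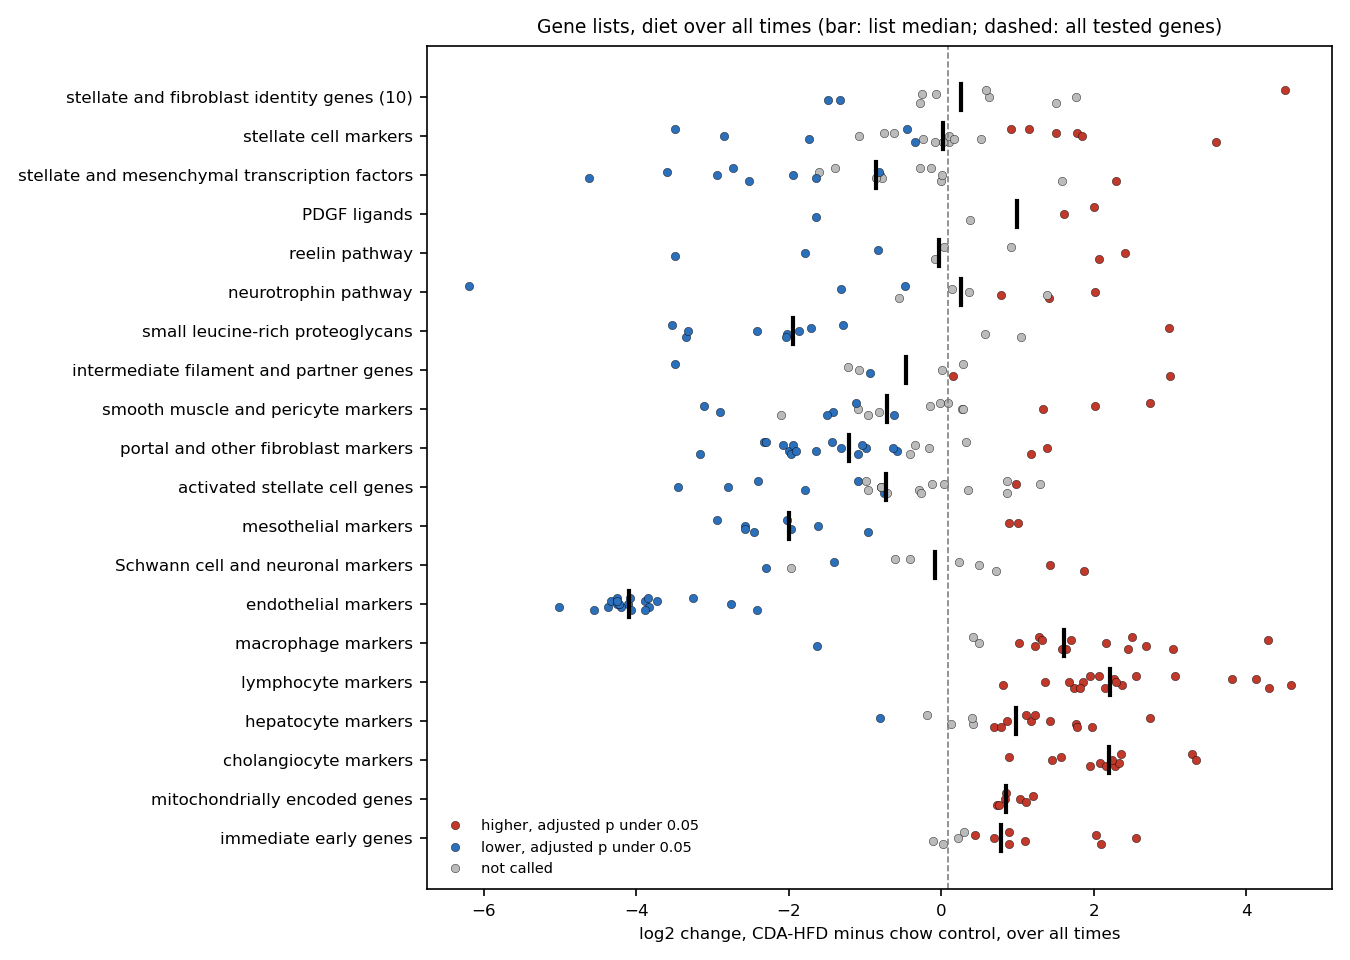
Log2 change (CDA-HFD minus chow control, over all times) of each tested gene, by list; red dots were called higher and blue dots lower (Benjamini-Hochberg adjusted p under 0.05), grey dots were not called, black bars are list medians and the dashed line is the median of all tested genes (0.08). The 10 genes spread on both sides, the small leucine-rich proteoglycans lie mostly below (median -1.94), and the endothelial markers lie lowest (median -4.10).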

How the data were processed

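RNA-seq counts were analysed for 22 libraries labelled as mouse HSC. The authors deposited 1 table of raw counts per gene symbol. The submitters' processing notes name STAR 2.7.9a, HTSeq, DESeq2 and the builds GRCm38 and mm10. The strand setting and annotation used were not given in the sources used here. From the counts, genes were kept by edgeR's filterByExpr over the 8 diet and time groups, scaled by TMM and tested with edgeR 4.0.16 (quasi-likelihood, group means, contrasts; limma 3.58.1, R 4.3.3), with Benjamini-Hochberg adjustment over all 22409 tested genes and a threshold of 0.05. Log2 CPM used a prior count of 2. The SE given with a log2 change is the size of that change divided by the square root of the test's F. It is approximate, above all where a group holds libraries at 0 counts. RPKM was computed from exon length in GENCODE for GRCm38. Single values were also tested by exact permutation of diet labels within times.

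Depth was 19754805 to 41665623 counts per library. Intervals and floors (3 counts) cover counting error only. In simulated data with 50 changed genes per class, diet over all times recovered 36% of 2-fold and 92% of 4-fold changes at 1 to 10 CPM. Each simulated set held 200 changed genes in all, far fewer than the 11748 called for diet over all times in the data. The adjustment was stricter in the simulation for that comparison, so these shares do not carry over to it.

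The 10 genes and the gene lists were chosen with earlier results of these data known. All 10 genes are described. From each list up to 4 called genes with the smallest p for diet over all times were named, and others named for a role were chosen after their values were seen. For each of the 10 genes the 3 most alike genes were listed; some genes of these lists are not reported here. Replicates differed by more than sampling noise: the lowest chi-square per degree of freedom of any pair was 15.962. Alternatives tried were RLE size factors, library size alone, no filter, DESeq2 1.42.0, a prior count of 0.5, a replicate block, only the groups compared, leaving out a time, a library or the libraries that stand apart, and 24 h cosine terms.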

Additional observations from a re-analysis of the deposited data

Results flagged for a closer look

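Among the 10 control libraries, 3 of the 10 genes had 1 library far from the others, with a gap to the next library over 0.466 of the group's range. Chance flags about 1 in 20 groups. Pdgfra was at 14.6 CPM in control ZT18 replicate 1, and the next control library had 5.31 CPM. Dcn was at 626 CPM in the same library, and the next had 372 CPM, a gap of 0.474 of the range and so only just over the limit. That library stood apart on the second principal component and had the highest sums of fibroblast and mesothelial markers of the control libraries. Their part in these values was not tested. Hand2 was at 0.364 CPM in control ZT18 replicate 2, from 10 counts, and the next control library had 0.153 CPM.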

How the results depend on the processing

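Ngfr, Pdgfra and Dcn were called over all times in every alternative run that made this comparison. The 24 h cosine terms and the runs on only the groups compared did not make it. With library size alone, 5 of the 10 genes were called over all times (Pdgfrb and Lhx2 higher as well) and 1 at ZT6, and 561 genes between times under CDA-HFD. With no filter on low counts, 1 was called at ZT0, 4 at ZT12, and 3 each between times in control, between times under CDA-HFD and for the interaction, with 2866, 1500 and 2085 of all genes. In that run the edgeR quasi-likelihood adjusted p of Dcn over all times was 1.54e-64, against 0.000157 in the reported fit. The p-values of the run without the filter are therefore not comparable with those of the other runs. DESeq2 called 1 at ZT6, 1 between times under CDA-HFD and 2 for the interaction, with 3104, 1128 and 1465 of all genes between times in control, under CDA-HFD and for the interaction. Without the 2 control libraries that stand apart, 632 genes were called between times under CDA-HFD, and for the interaction 1 of the 10 (Ngfr) and 1004 of all genes. The 24 h cosine terms called 709, 24 and 40 genes for these 3 tests, against 1287, 241 and 215 in the reported fit. Acta2 over all times changed sign with library size alone (0.11) and without ZT12 libraries (0.15), and Des without ZT6 libraries (0.22). The cause of these shifts was not tested.

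Leaving out 1 library in turn gave 3 to 4 of the 10 genes over all times, 0 to 0 at ZT0, 0 to 2 at ZT6, 1 to 4 at ZT12, 3 to 3 at ZT18, 1 to 2 between times in control, 0 to 0 under CDA-HFD and 0 to 1 for the interaction. The same gave 790 to 1957, 96 to 663 and 76 to 1086 of all genes for the last 3 tests, and -0.28 to 0.11 for Acta2. Pdgfrb was called higher over all times without control ZT18 replicate 1 (0.84, adjusted p = 0.0167).

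Replicate numbers did not pair the libraries: deviations of 71 same-numbered pairs correlated at -0.143 to 0.138. With a replicate block, 1 of the 10 was called at ZT6 (Des; Dcn had an adjusted p of 0.0616) and 123 genes for the interaction. Depth limits Hand2 and Lhx2, with at most 29 counts in a library.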
